A study of Mus musculus and Homo sapiens with 23 samples.

Results

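The genes described here are the Toll-like receptors of the mouse other than Tlr4, together with their chaperone gene Unc93b1. They were chosen by symbol, 10 genes of 21598 measured, and fall into 4 receptors of the cell surface (Tlr1, Tlr2, Tlr5 and Tlr6) and 6 genes of the endosomal side (Tlr3, Tlr7, Tlr8, Tlr9, Tlr13 and Unc93b1). RNA was sequenced from BV2, a mouse cell line immortalised from microglia, the macrophages of the brain. There was 1 library of cells given lipopolysaccharide (LPS) for 3 h and 1 library of unstimulated cells, neither with a knockdown or any other agent in its label. The series lists 23 samples and was built to follow histone acetylation marks, and its other 21 samples are chromatin or input samples that were not analysed here.

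Toll-like receptors are membrane proteins that recognise conserved molecules of microbes and signal to NF-kB and interferon regulatory factors through TIR adaptor proteins. The surface receptors bind components of bacterial walls and flagella, and the endosomal receptors bind nucleic acids after these have been taken up. Tlr2 works in pairs with Tlr1 or Tlr6 on bacterial lipoproteins, and Tlr5 binds flagellin. Tlr3 binds double-stranded RNA, Tlr7 and Tlr8 sense RNA and its breakdown products, Tlr9 senses DNA with unmethylated CpG, and Tlr13, which mice have and humans lack, senses bacterial ribosomal RNA. Unc93b1 carries the endosomal receptors out of the endoplasmic reticulum. LPS itself is recognised by Tlr4, so none of the genes described here encodes its receptor.

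Levels are FPKM (fragment counts scaled by transcript length and by the size of the library), which can be compared between genes because they are per length, and each is followed in parentheses by its deposited 95% interval. That interval holds counting and assignment error of its own library and says nothing of how cultures vary. A change is log2(FPKM + 1) in the LPS library minus that in the unstimulated library. A gene was counted when its FPKM reached 1 in the LPS library, the unstimulated library or both, and a counted gene was called higher or lower when its change was at least 1 in size, a fold of 2 on that scale. With 1 library a group there was no test, and each difference compares these 2 libraries. In a bulk culture, fewer cells carrying an RNA and less of it per cell cannot be told apart. Of 10035 counted genes, 858 were called higher (8.55%) and 1248 lower (12.4%), and the median change of all counted genes was -0.24. The called genes split into 40.7% higher and 59.3% lower on the deposited FPKM, into 24.8% higher and 75.2% lower after rescaling to TPM (median moved by -0.24), into 61.3% higher and 38.7% lower after median scaling (moved by 0.24) and into 53.0% higher and 47.0% lower after quantile normalisation (moved by 0.11). Fragment sums implied by the deposited intervals came to 16910000 in the LPS library and 13790000 in the unstimulated library, to the nearest 10000, sums that are too low wherever the assignment of shared fragments widened an interval. The library size behind the FPKM was 1.05 times as large in the LPS library, so these sums do not give the relative depth.

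The cells carried macrophage transcripts, and lymphocyte markers were near 0. All 9 measured macrophage and microglia markers were counted, with a summed FPKM of 9126 in the LPS library and 10218 in the unstimulated library. That sum rests mostly on Lyz2, Tyrobp and Fcer1g. By the size rule 2 of the 9 were called higher (Spi1 and Cd14) and 0 lower, against 8.55% and 12.4% of all counted genes. Their median change was 0.22. Aif1 was low, at 3.88 FPKM in the LPS library and 3.19 FPKM in the unstimulated library. Of 5 B cell markers 0 were counted, and their summed FPKM was 0.303 in the LPS library and 0 in the unstimulated library. T and NK cell, neuron and astrocyte markers were likewise uncounted (0 of 5 in each list), with no list sum above 0.171 FPKM. In the oligodendrocyte list and in the endothelium and epithelium list 1 of 5 markers was counted. For plasmacytoid dendritic cells, another cell type rich in Tlr7 and Tlr9, 2 of 5 markers were counted. These were Bst2 and Cox6a2, at 317 and 142 FPKM in the LPS library and at 100.0 and 87.8 FPKM in the unstimulated library. Siglech, which was not counted, was listed at 0 in the LPS library and at 0.0208 FPKM in the unstimulated library. With markers on both sides, this list does not settle whether such cells were present.

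Promoters of 3 of the 4 called receptors are shown because the genes differed in direction, so their start regions can be read against the values that follow. The window of Tlr3, the other gene called higher, was searched in the same way and is not printed. Each runs from 250 bases before to 10 bases after the annotated gene start, 5′ to 3′ on the strand of the gene, from RefSeq on build GRCm38.p6. The positions are of that build and not of mm9, the build of the expression files, and the start used there may differ. Capitals mark matches to any of the 4 motifs searched on both strands: the NF-kB consensus, the interferon-stimulated response element (ISRE), the AP-1 site TGANTCA and the PU.1 core GAGGAA. Tlr2 (chr3:83841599-83841858, minus strand) was called higher, and Tlr13 (chrX:106143025-106143284, plus strand) and Tlr8 (chrX:167264320-167264579, minus strand) were called lower.
Tlr2 promoter: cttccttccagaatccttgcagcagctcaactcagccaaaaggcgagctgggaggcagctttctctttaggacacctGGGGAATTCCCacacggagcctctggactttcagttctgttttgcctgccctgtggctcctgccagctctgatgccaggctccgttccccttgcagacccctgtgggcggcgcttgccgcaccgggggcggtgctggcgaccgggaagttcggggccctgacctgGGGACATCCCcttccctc
Tlr13 promoter: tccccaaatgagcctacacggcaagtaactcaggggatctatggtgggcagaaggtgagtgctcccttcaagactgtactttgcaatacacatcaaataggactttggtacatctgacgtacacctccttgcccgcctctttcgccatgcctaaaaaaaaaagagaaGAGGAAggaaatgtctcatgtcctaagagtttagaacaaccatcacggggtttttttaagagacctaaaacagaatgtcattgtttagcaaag
Tlr8 promoter: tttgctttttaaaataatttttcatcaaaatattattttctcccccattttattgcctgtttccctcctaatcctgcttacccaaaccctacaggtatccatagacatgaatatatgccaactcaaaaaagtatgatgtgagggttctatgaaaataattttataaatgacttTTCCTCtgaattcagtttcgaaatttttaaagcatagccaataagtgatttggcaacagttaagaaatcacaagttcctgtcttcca

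Among the surface receptors, Tlr2 was far higher in the LPS library and the other 3 stayed within the size rule or were near 0. Of the 4 surface genes 3 were counted, 1 was called higher and 0 lower, against 8.55% and 12.4% of all counted genes. Tlr2 (mm9 chromosome 3, 83640194 to 83645530) had an FPKM of 128 (125 to 131) in the LPS library and 6.75 (6.07 to 7.43) in the unstimulated library. Its ratio was 19.0 (17.1 to 21.1) and its change 4.06, and 103 counted genes had a larger change. The FPKM of Tlr2 stood at percentile 92.6 of the counted genes in the LPS library and at percentile 44.2 in the unstimulated library, near the top of the range with LPS and near its middle without. The call held under every scaling and pseudocount tried, with changes from 3.50 to 4.30.

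The partners with which Tlr2 pairs did not follow it. Tlr1, the partner for triacylated lipoproteins (mm9 chromosome 5, 65316073 to 65323938), was at 6.57 FPKM (5.87 to 7.26) in the LPS library and 8.98 FPKM (8.15 to 9.81) in the unstimulated library. The intervals did not overlap, the ratio was 0.731 (0.636 to 0.842), and the change of -0.40 was short of the size rule. Tlr6, the partner for diacylated lipoproteins (mm9 chromosome 5, 65344334 to 65351273), was at 4.47 FPKM (3.90 to 5.04) in the LPS library and 3.63 FPKM (3.10 to 4.15) in the unstimulated library. The intervals of Tlr6 overlapped, its ratio was 1.23 (1.02 to 1.49), and its change of 0.24 was short of the size rule. Both genes lie next to each other, 20395 bases apart with 0 measured genes between them. They are close paralogs. Implied fragments were near whole numbers for both, with 358 for Tlr1 and 247 for Tlr6 in the LPS library. In the unstimulated library they were 466 for Tlr1 and 191 for Tlr6. Fragments from similar stretches may have been assigned to either gene, which was not tested. The separate values would then be less certain than their sum. That sum was 11.03 FPKM (10.1 to 11.9) in the LPS library and 12.6 FPKM (11.6 to 13.6) in the unstimulated library. The FPKM of Tlr2 was thus 11.6 times (10.7 to 12.6) that of Tlr1 and Tlr6 together in the LPS library, and 0.535 times (0.471 to 0.608) in the unstimulated library.

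Tlr5, the flagellin receptor (mm9 chromosome 1, 184884919 to 184906175), was close to undetected. Its FPKM was 0.0145 (0 to 0.0434) in the LPS library and 0.0304 (0 to 0.0734) in the unstimulated library, which correspond to 1 fragment in the LPS library and 2 in the unstimulated library. Both counts are under a floor of 3 fragments, so no ratio is given. Tlr5 was not counted, since its FPKM was under 1 in both libraries.

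**Figure D1:**
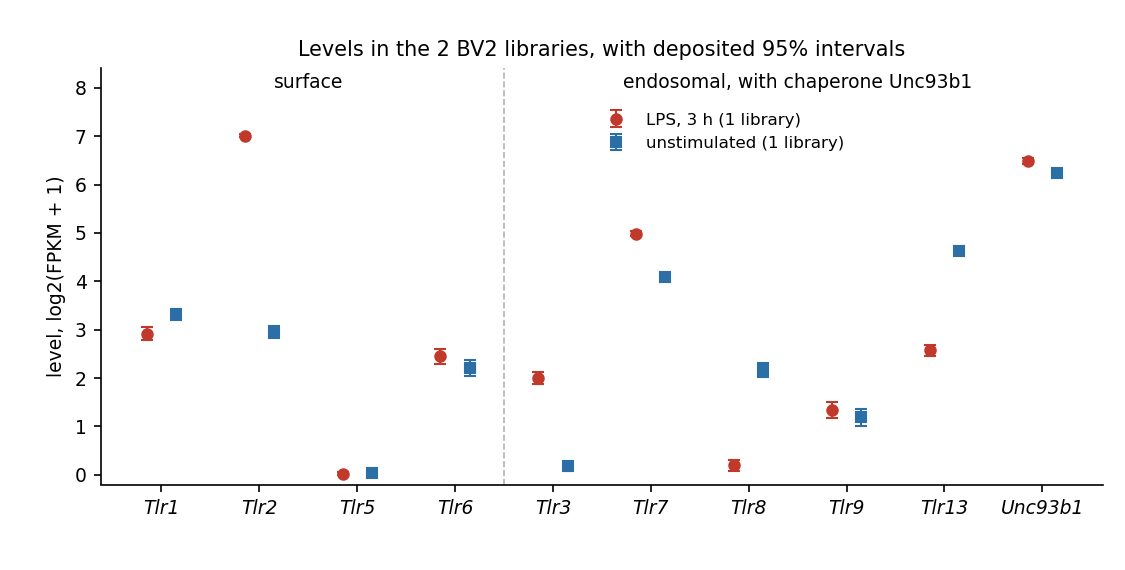
Level of each gene on the log2(FPKM + 1) scale (vertical axis) in the LPS library (circles, left of each pair) and the unstimulated library (squares), with the deposited 95% interval as bars, surface receptors left of the dashed line and the endosomal group right of it. Tlr2 stands at 128 FPKM in the LPS library and 6.75 in the unstimulated library, Tlr13 and Tlr8 are lower in the LPS library, and Tlr5 lies near 0 in both.

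The endosomal group went in both directions. All 6 of its genes were counted, 1 was called higher and 2 lower, against 8.55% and 12.4% of all counted genes, and 2 of the counted genes (Tlr3 and Tlr8) passed the level filter through 1 library alone. Tlr3 was the gene called higher, Tlr13 and Tlr8 were called lower, Tlr7 came close to the rule from below, and Tlr9 and Unc93b1 changed little.

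Tlr3, the receptor for double-stranded RNA (mm9 chromosome 8, 46481019 to 46495893), was at 3.02 FPKM (2.66 to 3.37) in the LPS library and 0.132 FPKM (0.0560 to 0.209) in the unstimulated library. The values rest on 287 fragments in the LPS library and 12 in the unstimulated library. The ratio was 22.8 (12.6 to 41.0) and the change 1.83. The ratio interval of Tlr3 covers that of Tlr2, while its level in the LPS library was far lower. With a pseudocount of 5 the change of Tlr3 was 0.64, short of the rule. Tlr3 signals through the adaptor Ticam1 alone, which was at 7.77 FPKM (7.06 to 8.49) in the LPS library and 3.64 FPKM (3.14 to 4.14) in the unstimulated library, a change of 0.92 (a gene named after its values were seen). That change passed the rule after median scaling and quantile normalisation (1.16 under both) and with a pseudocount of 0.1 (1.07). It stayed short of the rule under the other alternatives.

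Tlr7, a receptor for single-stranded RNA (mm9 chromosome X, 163742863 to 163768460), had an FPKM of 30.7 (29.5 to 31.9) in the LPS library and 16.0 (15.1 to 16.9) in the unstimulated library. The ratio was 1.92 (1.79 to 2.05) and the change 0.90, within the rule on the deposited FPKM and past it after median scaling alone (1.13). The change of Tlr7 was 0.67 after TPM scaling, 0.85 after quantile normalisation and 0.76 with a pseudocount of 5. Tlr8, its neighbour and closest relative (mm9 chromosome X, 163680664 to 163701720), was at 0.147 FPKM (0.0539 to 0.240) in the LPS library and 3.51 FPKM (3.05 to 3.98) in the unstimulated library. The fragments behind Tlr8 numbered 10 in the LPS library and 228 in the unstimulated library. The ratio was 0.0418 (0.0219 to 0.0797), which is 23.9-fold lower, and the change was -1.98. With a pseudocount of 5 the change of Tlr8 was -0.73, short of the rule. A gap of 41142 bases with 0 measured genes separates these X-linked neighbours, and their FPKM differed in opposite directions with intervals that did not overlap in either gene. Tlr7 exceeded Tlr8 by 209-fold (111 to 394) in FPKM in the LPS library and by 4.56-fold (3.95 to 5.26) in the unstimulated library.

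Tlr13, the sensor of bacterial ribosomal RNA (mm9 chromosome X, 103338614 to 103355832), had an FPKM of 4.95 (4.47 to 5.42) in the LPS library and 23.8 (22.8 to 24.9) in the unstimulated library. It was 4.81-fold lower (4.33 to 5.35), with a change of -2.06, and 109 counted genes had a more negative change. Its call held under every scaling and pseudocount tried, from -2.37 to -1.53. Tlr9, the DNA sensor (mm9 chromosome 9, 106124929 to 106129207), was at 1.54 FPKM (1.25 to 1.82) in the LPS library and 1.30 FPKM (1.03 to 1.56) in the unstimulated library. The intervals of Tlr9 overlapped and its change was 0.15, so no difference was detectable at this depth.

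Unc93b1 (mm9 chromosome 19, 3935186 to 3949340) was the most abundant gene of the endosomal group in both libraries. Summed over its 2 transcripts it had an FPKM of 88.9 (85.2 to 92.7) in the LPS library and 74.0 (70.7 to 77.3) in the unstimulated library, a ratio of 1.20 (1.13 to 1.28) and a change of 0.26. NM_019449 was at 60.7 FPKM (58.2 to 63.3) in the LPS library and 47.0 FPKM (44.5 to 49.5) in the unstimulated library. NM_001161428 was at 28.2 FPKM (25.4 to 30.9) in the LPS library and 26.9985 FPKM (24.9 to 29.1) in the unstimulated library, with overlapping intervals. Most of the difference in the sum lay in NM_019449, although overlapping transcripts of a gene share fragments. Relative to the endosomal receptors it carries, the FPKM of Unc93b1 was 2.21 times (2.09 to 2.33) their sum in the LPS library and 1.65 times (1.56 to 1.75) in the unstimulated library.

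Set side by side by summed FPKM, the surface receptors were 7.18-fold (6.73 to 7.67) higher in the LPS library. The endosomal receptors, without Unc93b1, were slightly lower there, at a ratio of 0.901 (0.858 to 0.945). The surface sum was 139 FPKM (136 to 142) in the LPS library and 19.4 FPKM (18.2 to 20.6) in the unstimulated library. The endosomal sum was 40.3 FPKM (38.9 to 41.7) in the LPS library and 44.8 FPKM (43.3 to 46.3) in the unstimulated library, with intervals that did not overlap. Its change was -0.15 on the deposited FPKM, -0.39 after TPM scaling and 0.09 after median scaling, which adds 0.24 to every change. Without Tlr2 the surface sum was 11.05 FPKM (10.2 to 11.9) in the LPS library and 12.6 FPKM (11.7 to 13.6) in the unstimulated library, so the surface difference was that of Tlr2. By the size rule 1 of 3 counted surface genes and 3 of 6 counted endosomal genes were called, against 21.0% of all counted genes in either direction. Of these endosomal genes, Tlr3 and Tlr8 passed the level filter through 1 library alone. Their calls were lost with a pseudocount of 5 and with a filter at 5 FPKM. Genes of a group are not replicates, and the difference between the groups was not tested.

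The makeup of the receptor transcripts turned over within both groups. Surface receptors made up 77.5% of the summed FPKM of the 9 receptors in the LPS library and 30.2% in the unstimulated library, with Tlr2 alone at 71.4% in the LPS library and 10.5% in the unstimulated library. Within the surface sum, Tlr2 held 92.1% in the LPS library and 34.8% in the unstimulated library, where Tlr1 was first with 46.3%. Within the endosomal sum, Tlr7 held 76.1% in the LPS library and 35.8% in the unstimulated library. Tlr13 held 12.3% of that endosomal sum in the LPS library and 53.2% in the unstimulated library. The endosomal sum, slightly lower in the LPS library on the deposited FPKM, thus had a different leading receptor in each, with Tlr7 at 6.20 times (5.59 to 6.88) the FPKM of Tlr13 in the LPS library and 0.672 times (0.625 to 0.722) in the unstimulated library.

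**Figure D2:**
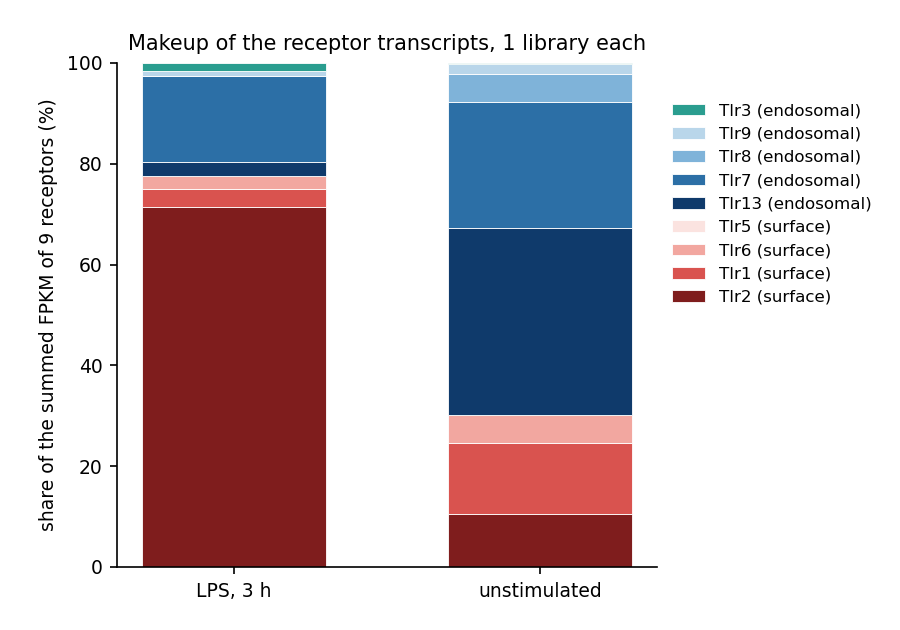
Share of each receptor in the summed FPKM of the 9 receptors (vertical axis, percent) in the LPS library (left bar) and the unstimulated library (right bar), surface receptors in reds at the bottom and endosomal receptors in blues and green above. Tlr2 takes 71.4% of the LPS bar and 10.5% of the unstimulated bar, and Tlr13 takes 2.76% of the LPS bar and 37.1% of the unstimulated bar.

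In order of FPKM, the receptors of the LPS library ran Tlr2, Tlr7, Tlr1, Tlr13, Tlr6, Tlr3, Tlr9, Tlr8 and Tlr5. All neighbours in that order had separate intervals except Tlr13 and Tlr6. In the unstimulated library the order was Tlr13, Tlr7, Tlr1, Tlr2, Tlr6, Tlr8, Tlr9, Tlr3 and Tlr5, where Tlr6 and Tlr8, and Tlr3 and Tlr5, were not separated. Tlr7 followed the leading receptor in both libraries, and Tlr1 came after Tlr7.

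Taking all 10 genes, 9 were counted, 2 were called higher and 2 lower, against 8.55% and 12.4% of all counted genes, and 5 lay within the rule. The intervals of the libraries were separate for 4 counted members that were higher in the LPS library (Tlr2, Tlr3, Tlr7 and Unc93b1), against 25.1% of all counted genes. They were separate for 3 that were lower (Tlr1, Tlr8 and Tlr13), against 48.4% of all counted genes. Since 73.5% of all counted genes had separate intervals, separation by itself is common in these libraries.

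**Figure D3:**
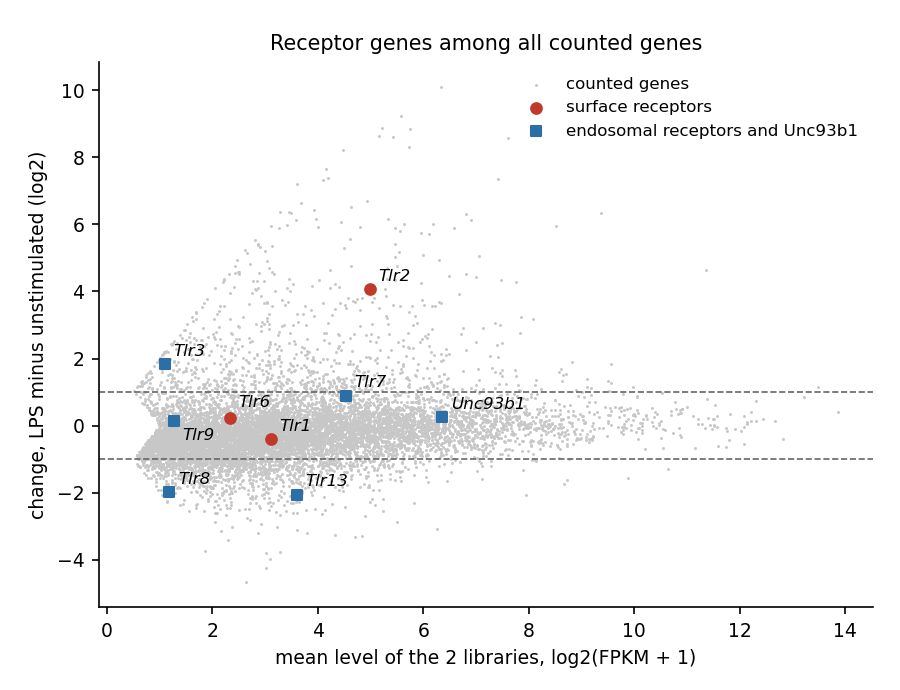
Change (vertical axis, log2, LPS minus unstimulated) against the mean level of the 2 libraries (horizontal axis, log2(FPKM + 1)) for the 10035 counted genes in grey, with surface receptors as circles and the endosomal group as squares. The dashed lines mark the size rule at 1 and -1, with Tlr2 and Tlr3 above, Tlr13 and Tlr8 below and the other 5 counted members between them.

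Read against these values, the NF-kB consensus was found in the promoter windows of Tlr2 and Tlr3, the 2 genes called higher, among 8 member genes with a window in the RefSeq table. No window was listed there for Tlr7 and Unc93b1. Windows of 300 bases, from 250 before to 50 after the start, were searched, and 4.51% of all 32851 such windows hold that consensus. In Tlr2 it matched at -173 to -163, where 2 overlapping matches lie and 1 of them reads on both strands, and again from -8 to 2. In Tlr3 it matched at -211 to -202. The PU.1 core, the binding word of a myeloid factor, matched in Tlr13 at -83 to -78 and in Tlr8 at -77 to -72, the 2 genes called lower, and also in Tlr1 and Tlr9, which were within the rule. That core is in 28.3% of all windows. The ISRE matched in Tlr6 alone, in 2 overlapping matches from -116 to -101 (3.44% of all windows hold it), and the AP-1 site in Tlr9 alone (7.81%). These matches describe letters in a window and were not tested as binding sites.

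**Figure D4:**
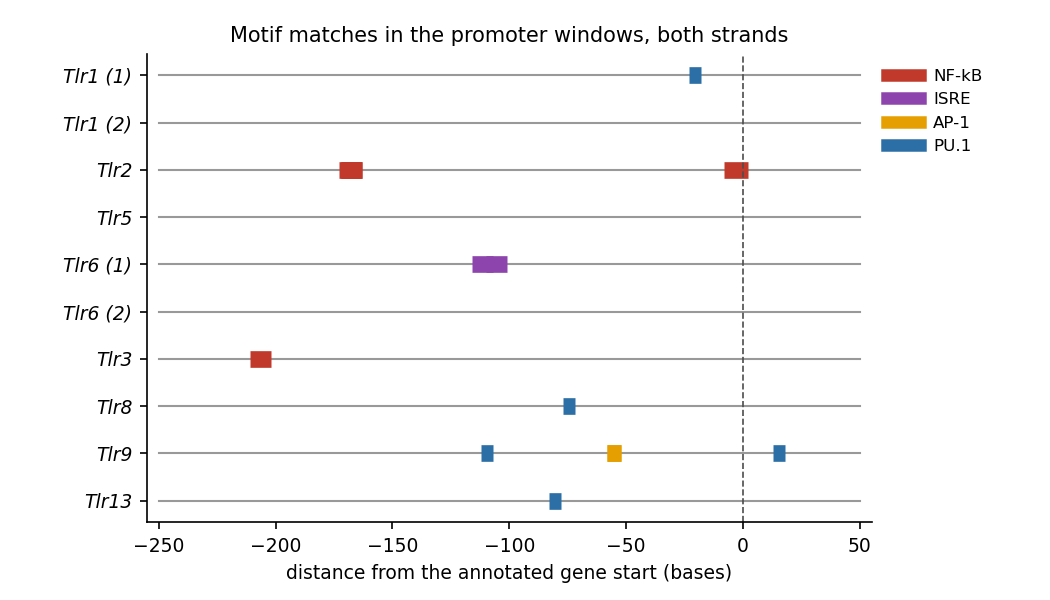
Motif matches (coloured blocks) along the promoter windows of 8 member genes, with the distance from the annotated gene start in bases on the horizontal axis and a second window shown for Tlr1 and Tlr6. Tlr2 and Tlr3 hold the NF-kB matches, and Tlr8 and Tlr13 each hold 1 PU.1 match between -83 and -72.

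Other genes of the pathway were followed in 6 lists with 76 genes, of which 74 were measured and 68 counted. Of the counted genes, 15 were called higher and 6 lower, against 8.55% higher and 12.4% lower among all counted genes. In the other Toll-like receptor genes, Tlr4 was called lower, at 0.488 FPKM in the LPS library and 2.92 FPKM in the unstimulated library (a change of -1.40, and -0.53 with a pseudocount of 5, short of the rule), Tlr11 was listed at 0 in both, and Tlr12 was listed at 0 in the LPS library and 0.0153 FPKM in the unstimulated library.

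Of 13 counted genes for receptor chaperones and trafficking, 3 were called higher and 1 lower, with a median change of -0.46. The largest was Rab7b, a small GTPase of late endosomes, at 5.51 FPKM (4.87 to 6.16) in the LPS library and 61.5 FPKM (59.3 to 63.7) in the unstimulated library. Slc15a3, a peptide and histidine transporter of the lysosome, was at 346 FPKM (341 to 352) in the LPS library and 82.9 FPKM (80.3 to 85.6) in the unstimulated library. Syk, a tyrosine kinase of immune receptors, was called higher with a change of 1.88, and Lrrc59, an endoplasmic reticulum protein, with 1.16, which was 0.93 after TPM scaling and 0.98 after quantile normalisation, short of the rule. The folding chaperones of the receptors were short of the rule and lower: Hsp90b1 (also called gp96) had a change of -0.86 and its cofactor Cnpy3 of -0.89, both named after their values were seen. After TPM scaling both passed the rule, with Hsp90b1 at -1.11 and Cnpy3 at -1.14, and Hsp90b1 also passed it after quantile normalisation (-1.14). The called genes of this mixed list therefore went both ways, beside an Unc93b1 that changed little.

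The proteases, nucleases and cofactors of the endosome were mostly within the rule. Of 14 counted, 1 was called higher and 1 lower, with a median change of -0.04. Rnaset2b, a ribonuclease that cuts RNA in the lysosome, was at 182 FPKM (175 to 188) in the LPS library and 86.8 FPKM (82.3 to 91.2) in the unstimulated library. Its change of 1.06 fell short of the rule under TPM scaling and under quantile normalisation. Rnaset2a, listed beside it, had no row left after the status filter. With all rows kept whatever their status, the list had 2 genes called higher. Hmgb1, a nuclear DNA-binding protein that also acts as a cofactor of Tlr9, was at 26.6 FPKM (25.1 to 28.1) in the LPS library and 79.5 FPKM (76.8 to 82.1) in the unstimulated library.

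Among 7 counted co-receptors of the surface, 1 was called higher and 0 lower (median change 0.13), and that gene was Cd14, which presents lipids to Tlr4 and Tlr2, with a change of 2.77. Adaptors and proximal signalling genes had 5 called higher and 1 lower of 22 counted (median 0.15). Irf7, the interferon regulatory factor activated below Tlr7 and Tlr9, was at 338 FPKM (332 to 344) in the LPS library and 4.68 FPKM (3.95 to 5.40) in the unstimulated library. Irf5, which acts below the same receptors, had a change of 1.92, the kinase gene Ikbke of 3.85, and Myd88, the adaptor of every receptor here but Tlr3, of 2.53. The others, named after their values were seen, were Irak2, higher but with overlapping intervals, 0 to 79.4 FPKM in the LPS library and 6.48 to 12.3 FPKM in the unstimulated library, and Ticam2, lower, whose call was lost at a pseudocount of 5 (-0.55) and after quantile normalisation (-0.93). Of 11 counted negative regulators, 5 were called higher and 2 lower (median 0.70), led by Tnfaip3, which encodes the ubiquitin editor A20 (change 4.23), Tnip1 (3.04), the ribonuclease gene Zc3h12a (2.89) and Socs1 (2.60). The rest, also named after their values were seen, were Irak3 among the higher and Inpp5d and Il1rl1 among the lower, the call of Il1rl1 being lost at a pseudocount of 5 (-0.40).

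**Figure D5:**
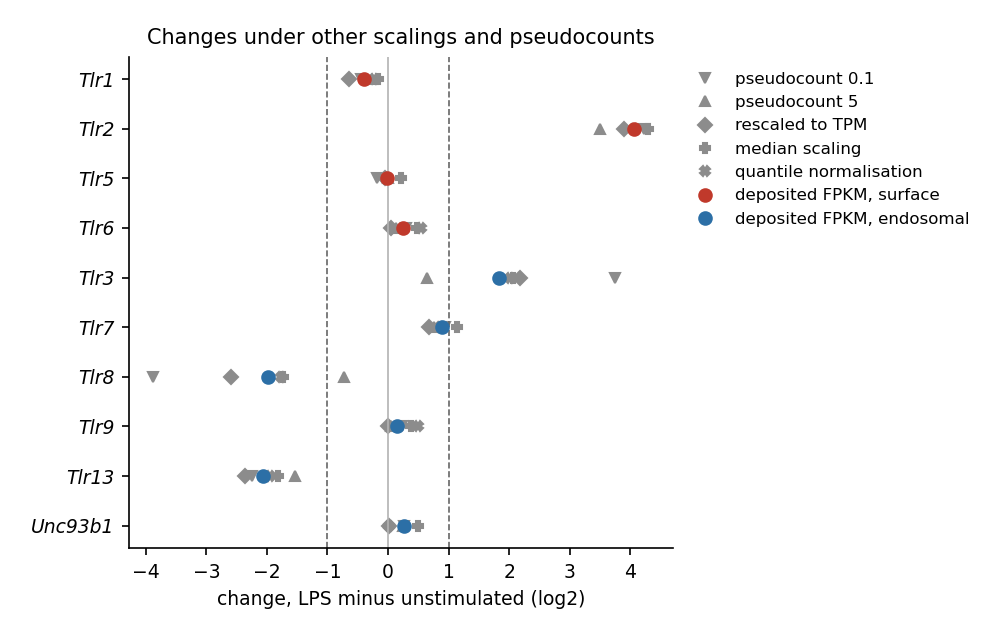
Change of each gene (horizontal axis, log2, LPS minus unstimulated) on the deposited FPKM (coloured circles) and under 5 alternatives (grey symbols), with dashed lines at the size rule of 1 and -1. Tlr2 and Tlr13 stay past the rule throughout, Tlr3 and Tlr8 fall inside it with a pseudocount of 5, and Tlr7 crosses it with median scaling.

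The genes nearest to the 3 members with the largest calls were found by distance over the 2 libraries on the log2(FPKM + 1) scale. Nearest to Tlr2 were Ifitm3 (123 FPKM in the LPS library and 6.36 in the unstimulated library, distance 0.09) and Oas1a (124 FPKM in the LPS library and 7.95 in the unstimulated library, distance 0.21), both antiviral genes. Nearest to Tlr13 were Uhrf1 (4.93 FPKM in the LPS library and 22.4 in the unstimulated library, distance 0.08), which maintains DNA methylation, and the DNA polymerase subunit gene Pole2 (4.68 FPKM in the LPS library and 22.6 in the unstimulated library, distance 0.10). Nearest to Tlr8 were Slc26a11 (0.105 FPKM in the LPS library and 3.55 in the unstimulated library, distance 0.06) and Dmpk (0.143 FPKM in the LPS library and 3.71 in the unstimulated library, distance 0.06). With 2 libraries many genes lie close to any given pair of values, so this is a description of likeness only.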

How the data were processed

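The authors deposited 1 table of FPKM values per library, with a lower and an upper bound and an estimation status per RefSeq transcript. The tables come from Cufflinks on build mm9, per the submitters' processing notes, and neither its version nor an aligner is named in the sources used here. Libraries were made from total RNA with a strand-specific kit, per the labels' protocols. Of 28246 rows, 27560 (97.6%) were given a symbol through a RefSeq gene table of GRCm38.p6, used for names only. Rows with a status other than OK in either library (391) and small RNA rows (703) were left out, and rows of a symbol were summed, with interval widths combined in quadrature. All 11 rows of the 10 genes had status OK. Intervals of ratios combine both deposited intervals on the log scale. Implied fragments are the square of 2 × FPKM divided by the distance from the FPKM to its upper bound. For the 9 receptors, 14 of 14 values under 500 fragments came within 0.05 of a whole number, and 1 fragment was worth 1.05 times as much FPKM in the unstimulated library as in the LPS library. For the 9 receptors these counts describe depth. For genes whose intervals are widened by the assignment of shared fragments the formula gives too few, so no count is printed for such a gene. The fragment sums of the libraries include these genes and carry that limit. The intervals say nothing of variation between cultures. Starts of mm9 loci were read as 0-based and are written 1-based. Genes, lists, motifs and the naming rule (all 10 genes, up to 4 called genes per list, 2 nearest genes for the 3 largest calls) were chosen with earlier results of these data known. A protein comparison of the receptors was planned and not run. Python 3.11.15, pandas 2.3.3, numpy 2.4.6 and matplotlib 3.10.9 were used. Alternatives were the pseudocount, the level filter, the scaling, the handling of transcripts and of row status, and a demand for separate intervals.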

Additional observations from a re-analysis of the deposited data

How the results depend on the processing

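No paired analysis was possible because each group holds 1 library, and for the same reason no library could be left out. A pseudocount of 5 left 1 gene called higher (Tlr2) and 1 lower (Tlr13), so the endosomal group had 0 higher and 1 lower, with Tlr3 at 0.64 and Tlr8 at -0.73. The same counts, 1 higher and 1 lower, and 0 and 1 in the endosomal group, came from a filter at 5 FPKM, which removes Tlr3 and Tlr8. Median scaling put 2 endosomal genes above the rule, with Tlr7 at 1.13, and, since it adds 0.24 to every change by construction, turned the small negative changes of Tlr5 to 0.22 and of the summed endosomal receptors to 0.0903. The genes called lower among all counted numbered 2061 with a pseudocount of 0.1, 354 with 5, 2280 after TPM and 698 after median scaling. Called lower in the 6 pathway lists were 3 genes with a pseudocount of 5, 3 with the filter at 5 FPKM and 10 after TPM. Of the 21 genes called in the pathway lists, 15 kept their call under every alternative. Of 84 changes computed, 79 kept their direction and side of the rule, 0 called changes turned round, and 84 of 100 counts stayed within 1.5 times. Part of these could not move. Each of the 9 receptors has 1 row, of status OK, so the handling of transcripts and of row status leaves its change as it was. Dropping the level filter cannot alter a count, since a change of 1 at a pseudocount of 1 already needs an FPKM of at least 1. Depth limits Tlr5 (1 fragment in the LPS library and 2 in the unstimulated library), Tlr8 in the LPS library (10) and Tlr3 in the unstimulated library (12).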

Other observations

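Genes around the receptors were read from the mm9 loci of the files, within 100 kb on either side. Calls among them stand beside 21.0% of all counted genes called in either direction. Next to Tlr2, the 1 counted neighbour, Tmem131l, was called lower. Beside Tlr7 and Tlr8 on chromosome X, Prps2, a nucleotide synthesis gene, was called lower with Tlr8, and Tmsb4x was within the rule. Around Unc93b1 11 of 13 neighbours were counted, and 0 were called in either direction. Around Tlr1, Klf3, a transcription factor gene, was called higher, and around Tlr9 the haem synthesis gene Alas1 was called higher among 6 counted neighbours. The neighbours of Tlr13 and Tlr3 held 1 counted gene each and 0 calls. Neighbour names were chosen after their values were seen.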
